A study of Mus musculus with 8 samples.

Results

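RNA levels in mouse pre-iPSCs that carried Nanog and Sin3a transgenes together were compared with those in cells that carried 2 empty vectors. The comparison used 4 of the 8 arrays of the series, 2 with both transgenes (Nanog+Sin3a) and 2 with empty vectors (EV), as their labels name them. Of the 45281 features on the bead array, 16745 (37.0%) had an intensity above 16 in at least 2 of these 4 arrays and were tested. They covered 9269 of the 19057 genes with a symbol on the array, each represented below by its brightest tested feature, and 2484 features with no single symbol.

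Pre-iPSCs are cells stalled partway through reprogramming. Both groups were female cells of a 129/MF1 background, derived from neural stem cells, with an Oct4-GFP-IRES-puro reporter and grown on gelatin in serum with LIF. All had been transfected with PiggyBac vectors under the CAG promoter, selected with hygromycin and/or blasticidin as stable populations, and collected on day 0, before the change of medium that starts reprogramming. The control cells thus also went through transfection and drug selection. A further 2 arrays from cells with Nanog and 1 empty vector (Nanog) entered the fit to estimate the spread. They are given beside the results where both transgenes are compared with Nanog alone. Nothing in the labels says that the 2 arrays of a group are separate cultures, so each p-value reflects spread between these arrays alone, which may be technical.

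Nanog, a DNA-binding homeodomain protein that helps hold embryonic stem cells in the pluripotent state, works partly by recruiting chromatin regulators to its target genes. Sin3a is the scaffold of a corepressor complex that holds the histone deacetylases Hdac1 and Hdac2 and removes acetyl groups from histones near its targets, and it has also been linked to gene activation in embryonic stem cells. The series title asks whether the complex and Nanog work together in reprogramming, and day 0 gives the state of the cells before that process starts.

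RNA of Nanog and of Sin3a was higher in the cells labelled with each transgene than in EV. The annotation does not say whether either feature lies within the transgene. Transgene RNA and RNA of the cells' own gene thus cannot be told apart. The Nanog feature read intensities of -3.6 and -5.4 on the EV arrays, 289.5 and 285.2 with both transgenes, and 364.8 and 485.8 with Nanog alone. This was at least 18.0-fold above EV (log2 difference 4.17, SE 0.17, adjusted p = 0.0002582, n = 2 per group), a bound because the EV arrays lay below the floor of 16 to which low values were raised. The Sin3a feature read 329.3 and 261.8 with EV, 1484.7 and 1483.3 with both transgenes, and 344.4 and 472.5 with Nanog alone. Sin3a was thus 5.05-fold above EV (log2 2.34, SE 0.17, adjusted p = 0.001486) on top of a clear level in the control cells.

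With both transgenes, 1301 of the 16745 features (7.77%) differed from EV at an adjusted p below 0.05 (limma, Benjamini-Hochberg over all features). Of these, 614 rose (3.67%) and 687 fell (4.1%). Among the 9269 named genes 766 passed (8.26%), with 447 higher (4.82%) and 319 lower (3.44%) and median log2 differences of 0.90 and -0.93 in each direction. These shares and the median over all genes, 0.03, are the background for every gene group below. For unadjusted counts the background is the 2571 of 9269 genes with an unadjusted p below 0.05. The gene lists were chosen with earlier results of these data known, so shares above the background describe the lists and test nothing. Rises of over 1 (log2) were seen in 182 genes and falls of that size in 141, and 28 rose and 12 fell by over 2. By level, 10.3% of features at a mean log2 level of 7 to 9 passed against 6.47% at or below 5.

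The call count leaned on all 4 arrays. Without any 1 of the EV or Nanog+Sin3a arrays, 0 features passed, although 2657 to 4163 had an unadjusted p below 0.05 (4531 with all arrays) and every one of the 1301 kept its direction. That kept direction was fixed in advance, because the EV and Nanog+Sin3a arrays did not overlap in any of the 1301. Adding both Sin3a arrays to the fit, the second of which is far noisier than the others, left 58. Between their 2 arrays, the Nanog+Sin3a cells differed by over 1 (log2) in 4.05% of tested features and the EV cells in 0.400%. Lying entirely above or below EV is a weak criterion with 2 arrays a group, since 28.8% of all tested features lay entirely above and 30.3% entirely below, and 32.4% and 27.8% of named genes did.

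**Figure D1:**
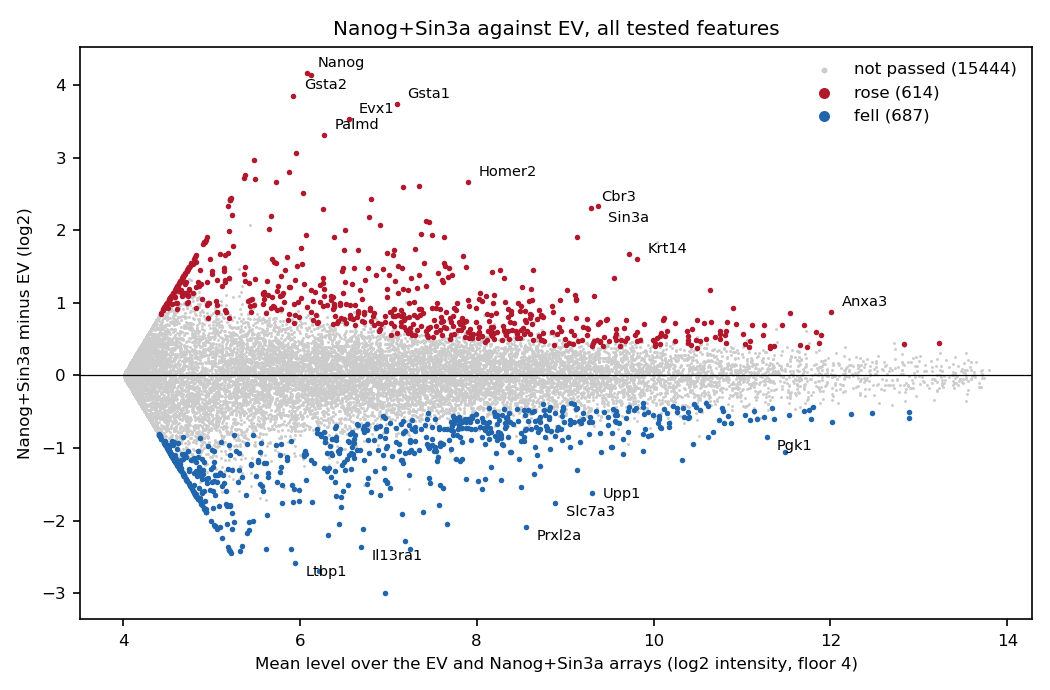
The log2 difference between Nanog+Sin3a and EV (vertical axis) against the mean log2 level of each of the 16745 tested features (horizontal axis, floor at 4), with the 614 features that rose in red and the 687 that fell in blue. Rises and falls spread over the whole range of levels, with Nanog, Gsta2 and Gsta1 among the largest rises, and the slanted edges at the left are features at the floor in one group.

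Among named genes, the alpha-class glutathione S-transferases Gsta2 and Gsta1 had the largest rises after Nanog itself. These enzymes join glutathione to electrophiles and peroxidation products. Gsta1 read 38.6 and 36.2 with EV and 579.8 and 430.6 with both transgenes, a 13.4-fold rise (log2 3.74, SE 0.18, adjusted p = 0.0003844). Its other features rose by 4.14 and 3.07. Gsta2 read 8.1 and -0.6 with EV and 234.8 and 228.8 with both transgenes, at least 14.5-fold higher (log2 3.86, SE 0.17, adjusted p = 0.0002582). The paralogs are so alike that array features for one may also read the other, which makes their separate levels uncertain.

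The likeness extends to their promoters, shown here because both genes rose together and both stood above Nanog alone. The sequences are the 250 bases before each RefSeq start on GRCm38.p6, Gsta1 at chr9:78230419-78230668 on the plus strand and Gsta2 at chr9:78347146-78347395 on the minus strand. Capitals mark the 2 runs of at least 15 identical bases, the longer of 29.
Gsta1: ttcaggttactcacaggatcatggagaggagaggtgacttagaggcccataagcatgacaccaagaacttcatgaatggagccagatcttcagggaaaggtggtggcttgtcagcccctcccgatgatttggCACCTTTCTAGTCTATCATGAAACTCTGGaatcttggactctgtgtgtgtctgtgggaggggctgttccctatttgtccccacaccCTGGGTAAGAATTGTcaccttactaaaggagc
Gsta2: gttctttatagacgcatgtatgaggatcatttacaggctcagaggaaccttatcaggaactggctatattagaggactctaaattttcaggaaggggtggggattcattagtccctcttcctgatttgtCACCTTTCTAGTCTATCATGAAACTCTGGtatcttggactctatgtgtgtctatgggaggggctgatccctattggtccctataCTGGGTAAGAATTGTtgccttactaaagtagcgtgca
In a global alignment 184 of 239 aligned bases (77.0%) were identical, and both shared runs lay in the part of the window nearer the start. A search on both strands for the antioxidant response element TGACNNNGC, the AP-1 site TGACTCA and the E-box CACGTG found no match to these letters in either window. Among all 32851 promoters in the RefSeq table, 10.2%, 4.46% and 6.02% held them in the same 250 bases.

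Other conjugating and detoxifying enzymes moved less. Gsta4, which acts on the lipid peroxidation product 4-hydroxynonenal, went from 62.5 and 54.7 to 360.3 and 346.7 (log2 2.60, SE 0.19, adjusted p = 0.001486). Gstm2 rose from 76.0 and 71.2 to 238.0 and 250.6 (log2 1.73), and Gstz1 of tyrosine breakdown rose by 0.57. Gsta3, another alpha-class member, read 188.3 and 171.4 with EV and 229.3 and 312.1 with both transgenes (0.57) and did not pass. Of 19 measured glutathione transferases, 5 rose and 0 fell at this threshold (10 had an unadjusted p below 0.05), and their median was 0.40. The larger group of redox and detoxification genes was mixed, with 5 of 26 higher, 3 lower and a median of 0.06. Its rises were Cbr3, Ephx1 (1.35), Blvrb (1.23), Slc7a11 (0.91) and Nqo1 (0.75), which encode a carbonyl reductase, an epoxide hydrolase, biliverdin reductase B, the cystine transporter and a quinone reductase. Cbr3 went from 276.7 and 284.5 to 1330.2 and 1456.8 (log2 2.31, SE 0.10, adjusted p = 0.0002582). Prxl2a, a peroxiredoxin-like protein, fell from 799.3 and 755.3 to 214.3 and 154.9 (-2.09, SE 0.16, adjusted p = 0.001513), with -2.70 in its other feature. Aldh3a1 (-0.92) and Akr1b8 (-1.04), which act on aldehydes, were the other falls, so members with related chemistry went opposite ways.

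The remaining large rises came from many kinds of gene. Evx1, a homeobox factor of the primitive streak, read 28.7 and 26.5 with EV and 296.6 and 344.4 with both transgenes (log2 3.53, SE 0.16, adjusted p = 0.0002582), while Nanog alone gave 391.7 and 322.4. Palmd, which encodes palmdelphin, rose from 21.1 and 28.8 to 230.0 and 259.1 (3.31, SE 0.20). Homer2, a postsynaptic scaffold, rose from 94.2 and 96.1 to 601.7 and 606.7 (2.67, SE 0.10) and had almost equal values on the arrays of each group. Ank, a membrane protein of pyrophosphate export, rose by 2.67, and the membrane-binding protein Anxa8 by 2.61. The growth hormone receptor Ghr rose by 2.52 and the cadherin Cdhr1 by 2.43. Rhoj, a small GTPase, rose by 2.29, the junction protein Cgnl1 by 2.21, the membrane glycoprotein Pdpn by 2.20 and the cytochrome Cyp4f39 by 2.18. Of these, Ghr (0.47) and Cgnl1 (0.53) had another tested feature that did not pass.

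Nanog and Gsta2 were among 46 genes that rose from the floor on both EV arrays. Each of these entered the test through its level with the transgenes, so that it could only be higher. The brightest after these were Igfbp6 (117.0 and 100.9 with both transgenes), Nptx2 (114.5 and 98.0), Fam20a (78.2 and 97.8), Sprr2d (87.3 and 84.8), Dcn (92.6 and 79.4) and Them5 (85.1 and 86.2). They encode an IGF-binding protein, a neuronal pentraxin, a pseudokinase of biomineralization, a cornified envelope protein, the proteoglycan decorin and a thioesterase. Psmb8, Gbx2, Wnt5a and Fgfr3, counted in gene lists below, were at the floor on both EV arrays too. Like Gsta2, Igfbp6, Nptx2 and Dcn, they could add only to the rises of a list, and their log2 values are lower bounds.

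Among genes above the floor on all 4 arrays, the largest falls included a mitochondrial carrier and a cytokine receptor. Slc25a4, the mitochondrial ADP/ATP carrier, read 87.7 and 142.9 with EV and 28.0 and 16.4 with both transgenes (-2.39, SE 0.51, adjusted p = 0.038494), with wide gaps between arrays in both groups. Il13ra1, a subunit of the interleukin-13 receptor, fell from 248.9 and 222.7 to 47.3 and 43.9 (-2.37, SE 0.16, adjusted p = 0.001269). Syne4, which ties the nucleus to the cytoskeleton, changed by -2.18, and Rap1gap, which turns off the GTPase Rap1, by -2.14. Slc7a3, a transporter of cationic amino acids, went from 945.9 and 806.8 to 252.5 and 263.4 (-1.76, SE 0.12). Upp1, which cleaves uridine, went from 1178.0 and 1048.8 to 348.1 and 373.0 (-1.63, SE 0.10, adjusted p = 0.001084), and its other features gave -1.57 and -1.41.

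The other falls in this group included Ssb (-1.65), an RNA-binding protein that protects new RNA polymerase III transcripts, the cohesin subunit Rad21 (-1.64), the corneal keratin Krt12 (-1.59), Gm1673 (-1.55), Tmem176b (-1.54) and the endosomal protein Micall1 (-1.53). Features of the same gene disagreed in sign for 3 of these falls. Mpv17l, a protein related to a mitochondrial inner membrane protein, changed by -1.56 in its brightest feature, with EV arrays at 248.3 and 456.5, but rose by 1.22 in another (adjusted p = 0.035809). The axon guidance gene Sema5a changed by -1.73 and -1.60 in a pair of features, while others gave 0.70 and -0.06 and did not pass. Slc7a3 had another, dim feature at 0.64 and Ssb one at -0.66, neither of which passed.

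Another 46 genes fell to the floor with both transgenes, and these passed the filter only through EV. The brightest in EV were A230083G16Rik (84.5 and 87.2), the ion channel Asic1 (64.5 and 70.5), the Cdk-binding protein Cks2 (61.9 and 73.3), Samd5 (67.7 and 60.4), 1700009N14Rik (45.4 and 76.5), Rbmxl1 (46.9 and 60.4), the condensin subunit Ncapg (51.1 and 53.2) and the dynein light chain Dynlt1b (47.3 and 57.0).

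**Figure D2:**
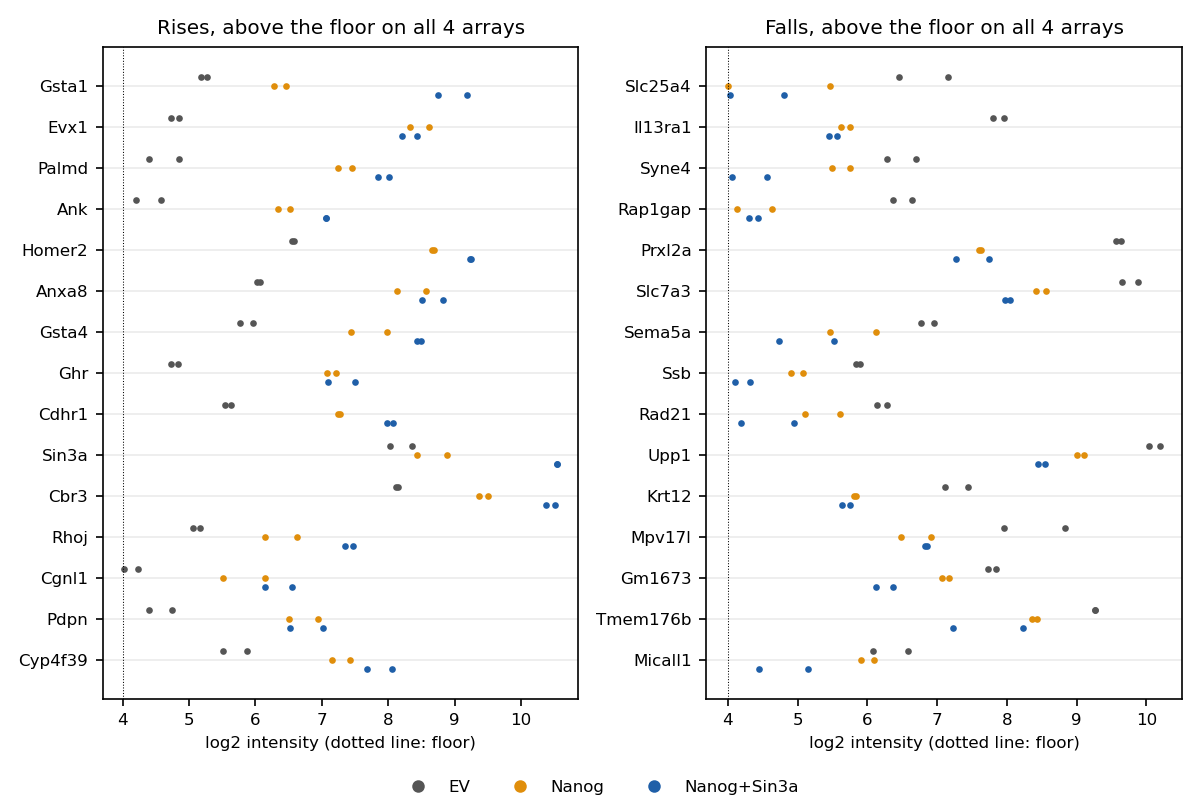
Log2 intensity of the 15 genes with the largest rise and the 15 with the largest fall among those above the floor on all 4 arrays (1 point per array, 2 arrays per group; grey EV, orange Nanog, blue Nanog+Sin3a; dotted line, the floor at 4). EV and Nanog+Sin3a points do not overlap for any gene, as the choice of genes requires.

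Agreement between features of one gene was also counted, but it is only partly a check. Features at the floor in one group passed the filter only through the other, as further features of Dcn and Grb10 did. Their side of 0 was fixed in advance, so the shares below are partly predetermined. Of 3467 genes with several tested features, 290 were called, and in 225 of these (77.6%) all features lay on one side of 0. The share among genes not called was 51.8%. Every tested feature passed in 33 genes that rose and 17 that fell. Among the rises, chosen after their values were seen, were the adhesion protein Amigo2 (2.12 and 2.00), Ugt1a10, which attaches glucuronic acid to lipophilic compounds (1.38, 1.51 and 1.53), the sulfotransferase Chst3 (1.39 and 1.14), Papss1, which makes the sulfate donor (1.04 and 1.20), the peptidase Mme (1.26 and 1.03), the mitotic transcription factor Foxm1 (0.81 and 0.85) and the thioredoxin inhibitor Txnip (0.89 and 0.68). Among the falls were the neural transcription factor Sox11 (-1.42 and -1.49), the co-receptor Nrp1 (-2.02 and -2.40), the pattern recognition protein Ptx3 (-1.80 and -2.45), the Wnt receptor Fzd3 (-1.38 and -0.92) and the ribosomal protein Rps3 (-0.50 and -0.64). Sox11 read 397.7 and 372.2 with EV and 142.0 and 145.2 with both transgenes. The brightest Fzd3 feature was at the floor with both transgenes (8.4 and -7.9) and could only fall. The features of a gene share the same RNA and are not replicates. Among the named list members, another feature of the same sign missed the threshold for Gstm2 (0.91), Blvrb (0.88), Dcn (0.42), Tnc (0.98), Grb10 (0.61), Srgn (0.50), Phlda3 (0.54), Cdkn2c (0.39), Cdc25c (0.52), Dab2 (-0.89), Cdc20 (0.35 and 0.45) and Irf1 (0.71, 0.49 and 0.56).

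Setting both transgenes against Nanog alone compares selected populations with and without the Sin3a vector. The Nanog feature differed between them by -0.55 (log2), which was not past the threshold. The Sin3a vector, the Nanog level and other differences between the populations cannot be told apart here. Of 16745 features, 8 passed (0.0478%), and all 8 were higher with both transgenes, while 1800 had an unadjusted p below 0.05. They were the Sin3a feature itself (log2 1.88, SE 0.17, adjusted p = 0.037123), 3 features of Gsta1, and 1 each of Gsta2, Cbr3, Krt14 and Rbp7. Gsta1 was 2.59 above Nanog alone (SE 0.18, adjusted p = 0.012952) and Gsta2 was 2.37 above it (SE 0.17, adjusted p = 0.012952), at Nanog intensities of 88.4 and 77.5 for Gsta1 and 46.3 and 43.3 for Gsta2. Cbr3 was 1.01 above (SE 0.10, adjusted p = 0.039036), with 661.1 and 727.7 in the Nanog arrays. Its other feature was 0.90 above Nanog alone and did not pass.

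Krt14, a keratin of basal epithelial cells, read 541.6 and 495.3 with EV, 591.5 and 686.3 with Nanog, and 1500.1 and 1650.1 with both transgenes. It was 1.60 above EV (SE 0.11, adjusted p = 0.001287) and 1.30 above Nanog (SE 0.11, adjusted p = 0.031294). Rbp7, a retinol-binding protein, read 190.3 and 181.4 with EV, 238.2 and 222.2 with Nanog, and 528.2 and 487.8 with both transgenes, or 1.45 above EV and 1.14 above Nanog (SE 0.11, adjusted p = 0.037123). On the first Sin3a array, which was not part of this fit, Krt14 read 835.0, Cbr3 429.3, Rbp7 226.4 and the Gsta2 feature 19.5. These calls were fragile, since 0 features passed without any 1 of the 6 arrays in the fit or with all 8 arrays, and a filter at 64 gave 57, of which 14 were lower. In most genes that changed against EV, the difference from Nanog alone was not past the threshold, which does not show that the groups were equal there. Cells with Nanog alone differed from EV by 3.69 for Evx1, 2.73 for Palmd and 2.10 for Homer2, against 3.53, 3.31 and 2.67 with both transgenes. For the falls Slc25a4, Il13ra1, Syne4 and Rap1gap they differed by -2.07, -2.19, -0.87 and -2.12, against -2.39, -2.37, -2.18 and -2.14. Dcn, by contrast, read 16.6 and 34.4 with Nanog and was 1.84 higher with both transgenes (adjusted p = 0.197423). The promoters of Cbr3, Krt14 and Rbp7 also held none of the 3 motifs named above.

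**Figure D3:**
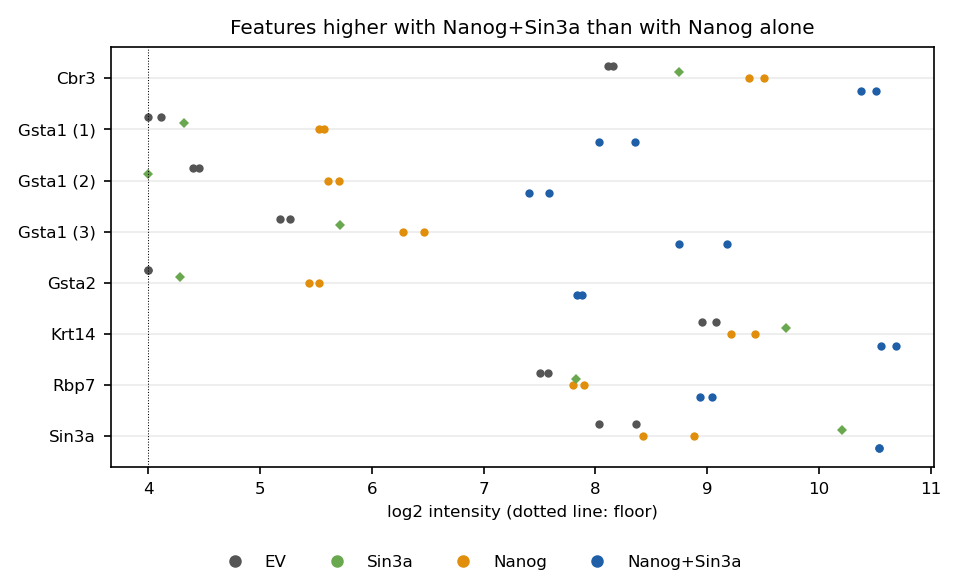
Log2 intensity on each array of the 8 features that were higher with Nanog+Sin3a than with Nanog alone (circles, 2 arrays per group: grey EV, orange Nanog, blue Nanog+Sin3a; green diamond, the first Sin3a array; dotted line, the floor at 4; numbers in brackets separate the 3 Gsta1 features). In every feature both blue points lie above all others, and in all 8 the Nanog arrays lie between EV and Nanog+Sin3a.

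Most pluripotency genes on the array were not measurable. Of 32 such genes 12 were tested, 2 rose and 1 fell, a share of 25.0% against 8.26% of all named genes, and the median was 0.05. Gbx2, a homeobox gene downstream of LIF, went from -1.6 and 13.9 to 41.5 and 47.3 (at least 1.47, SE 0.24, adjusted p = 0.018837). It was at the floor on both EV arrays and could add only a rise to this share. Gdf3, a TGF-beta family ligand, went from 947.7 and 911.4 to 1467.2 and 1249.7 (0.54, SE 0.12, adjusted p = 0.040509). The zinc finger factor Sall4 went down from 258.2 and 226.1 to 88.5 and 98.5 (-1.37, SE 0.16, adjusted p = 0.007304), and its other feature gave -1.32. Pou5f1, which encodes Oct4, read 1046.4 and 1167.3 with EV and 903.5 and 1065.7 with both transgenes and did not pass. Esrrb lay below the floor on all 4 arrays, and the brightest features of Sox2 and Zfp42 exceeded it on 1 array each. Fbxo15 was measured at 755.7 and 723.4 with EV and 950.3 and 811.7 with both transgenes and did not pass.

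Genes of the Sin3 and NuRD corepressor complexes were broadly measured, and Sin3a itself was the one that passed. Of 19 Sin3 complex genes, 1 rose (Sin3a) and 0 fell (4 had an unadjusted p below 0.05), with a median of -0.14. Of 10 NuRD genes 0 passed (2 unadjusted), and the subunit Mta2 had the largest difference at -0.64 (adjusted p = 0.085437), read from 528.0 and 444.2 to 274.6 and 354.1, beside Chd3 at -0.62. Of 8 DNA methylation genes 0 passed, with 0 at an unadjusted p below 0.05 and a median of 0.00. Dnmt3b, a de novo methyltransferase, read 198.2 and 175.9 with EV and 206.7 and 251.4 with both transgenes, while the glycosylase Tdg differed by -0.23. Rhox5, an X-linked homeobox gene that DNA methylation represses in many cell types, was the sole tested member of its list and rose from 244.5 and 236.8 to 595.1 and 726.5 (1.45, SE 0.12, adjusted p = 0.001779).

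The insulin-like growth factor axis had 4 of 13 measured genes higher, 0 lower (7 passed unadjusted in either direction) and a median of 0.55. These were Igfbp6 (2.76), Ghr (2.52), the imprinted adaptor Grb10 (1.19) and the binding protein Igfbp7 (0.91). Grb10 was also the 1 call among 7 measured imprinted genes, whose median was 0.23. Annexins, which bind membranes in the presence of calcium, had 3 of 12 higher and 0 lower (5 unadjusted). The bright Anxa3 went from 3183.9 and 2917.3 to 6097.4 and 5089.6 (0.87, SE 0.11, adjusted p = 0.009738), with 0.87 in its other feature, and Anxa5 rose by 0.73. In the interferon and antigen presentation group 3 of 12 rose and 0 fell (5 unadjusted), with a median of 0.32. They were the proteasome subunit Psmb8 (at least 1.24, from the floor), the class I gene H2-D1 (0.74) and the transcription factor Irf1 (0.71). H2-D1 had 3 other features that did not pass, 1 of them at -0.22.

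Extracellular matrix and mesenchymal genes moved in both directions. Of 47 on the array 26 were tested, 9 rose, 3 fell and the median was 0.25. Rises were Dcn (2.42), the matrix glycoproteins Tnc (1.31) and Prelp (1.17), Timp2 (1.06), Col6a1 (1.02), Thy1 (0.75), Ccn2 (0.73), Sparc (0.71) and Vim (0.38). Another feature did not pass for Ccn2 (0.08), Col6a1 (0.71) and Sparc, where it lay on the other side of 0 (-0.84). Falls were Ltbp1 (-2.59), which anchors latent TGF-beta, Tgfbi (-1.06) and the protease inhibitor Timp1 (-0.59). Prelp was even within groups, at 368.1 and 324.7 with EV and 777.4 and 779.9 with both transgenes, whereas Ltbp1 read 152.9 and 148.6 with EV, 39.4 and 2.1 with both transgenes, and 0.74 in another feature that did not pass. None of 11 contractile genes passed in limma (3 unadjusted), and their largest differences were Cnn2 at 0.66 and Actn4 at 0.56, the latter with 0.41 and -0.34 in other features.

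Defining markers place limits on these matrix values. Col1a1, Col1a2, Col3a1, Lum and Postn lay below the floor on all 4 arrays, Thy1 lay above it on all 4 and Dcn on the Nanog+Sin3a arrays alone. The summed intensity of the 7 was 238.8 and 215.6 with EV and 434.4 and 481.4 with both transgenes. In bulk RNA, a change in the number of cells of a type and a change in RNA per cell cannot be told apart.

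Genes of neural stem cells, the source of these cells, were lower where they passed. Of 8 measured, 0 rose and 3 fell (5 unadjusted in either direction), but the median was 0.13. The intermediate filament Nes went from 97.8 and 105.6 to 60.3 and 57.7 (-0.78, SE 0.16, adjusted p = 0.034751) and the receptor Egfr from 664.7 and 616.5 to 398.5 and 371.7 (-0.73, SE 0.11, adjusted p = 0.01597). Id2, an inhibitor of basic helix-loop-helix factors, changed by -1.06. Egfr had 4 other features, of which 1 passed (-0.75), and those of Id2 (-0.31 and -0.41) and Nes (-0.22) did not. The factors Sox1, Pax6 and Olig2 lay below the floor on all 4 arrays, and the summed intensity of the 8 neural stem cell markers on the array was 772.7 and 722.1 with EV against 466.2 and 447.5 with both transgenes. Nes and Egfr were the 2 of these 8 above the floor, and most of the sum was Egfr. Id1 (0.22), Id3 (0.46) and Hes1 (0.54) of the same gene list differed in the opposite direction and did not pass.

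Of 9 measured neuronal genes 4 rose and 0 fell (4 unadjusted), at a median of 0.43. They were Nptx2 (2.73), Homer2 (2.67), the adhesion protein Ncam1 (1.34, with -0.19 in another feature that did not pass) and the enolase Eno2 (1.23). The neuronal markers Rbfox3 and Tubb3 read at most 17.3. Summed over 5 neuronal markers, intensity was 180.7 and 185.1 with EV and 185.9 and 266.6 with both transgenes, and most of it was Map2. None of 4 glial genes passed (0 unadjusted), with Glul at -0.51 and Cnp at 0.31. The 3 tested endothelial genes all passed, the receptors Flt1 (1.49) and Tek (1.22) higher and the adhesion protein Esam (-1.08) lower, while Pecam1, Cdh5, Kdr and Vwf summed to between 10.4 and 52.8 over the arrays. No blood or myeloid gene of 13 on the array was measurable, and Ptprc read at most 8.8. The part of any other cell type in these values was not tested.

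Early lineage markers were mostly at the floor. Of 27 mesoderm and Wnt genes on the array 3 were tested, and Evx1 and Wnt5a rose. Wnt5a, a secreted Wnt protein that acts without beta-catenin, read -14.6 and -2.2 with EV, 51.3 and 39.7 with both transgenes and 76.3 and 82.6 with Nanog alone. Among 5 tested primitive endoderm genes Srgn rose (0.84) and Dab2 fell (-0.83), while Gata4, Gata6 and Sox17 lay below the floor. The trophectoderm factor Tfap2a fell from 254.7 and 267.4 to 176.2 and 160.1 (-0.64, SE 0.12, adjusted p = 0.028163), with -0.04 in another feature that did not pass. Genes of the 2-cell-like state had the highest median of any list with at least 5 measured members, 0.57, yet 0 of 6 passed in limma (3 unadjusted), and the largest difference was Tcstv3 at 0.83 (adjusted p = 0.06475).

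Signalling genes changed in both directions. In the LIF and Stat3 group 2 of 16 rose, 4 fell and the median was -0.03. The feedback inhibitor Socs3 went from 486.3 and 527.6 to 258.0 and 283.0 (-0.91, SE 0.11, adjusted p = 0.007512), Bcl3 changed by -1.12 and the cytokine receptors Il13ra1 and Osmr by -2.37 and -0.90, while Gbx2 and the receptor Il6ra (0.72) rose. Receptor tyrosine kinases were split, with 3 of 20 higher (Fgfr3 at 1.66, Flt1 and Tek) and 4 lower (Kit at -1.23, Fgfr2 at -0.93, Egfr and Axl at -0.62). Kit, the stem cell factor receptor, went from 64.2 and 69.8 to 27.9 and 29.0. Of 18 genes induced by or restraining ERK signalling, 1 fell, the immediate early factor Egr2 (-0.87), which is a share of 5.56% and below the background. Of 21 CDK inhibitor and p53 target genes 2 rose (Phlda3 at 0.90 and Cdkn2c at 0.81) and the CDK inhibitor Cdkn1a fell (-0.61, with 2 other features that did not pass).

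Amino acid supply and stress genes had the most falls of any list. Of 25 measured, 8 fell, 1 rose and the median was -0.26, a share called of 36.0% against 8.26% of all genes. That share is a description, since the list was chosen with earlier results of these data known. Besides Slc7a3 and the lipoprotein receptor Vldlr (-1.47, with other features at 0.24 and -0.84 that did not pass), falls were seen in Cth of cysteine synthesis, the transporter subunit Slc3a2 (-0.86), Trib3 (-0.74), Cebpb (-0.73), Chac1 (-0.66) and Psat1 of serine synthesis (-0.57). Cth went from 432.8 and 387.0 to 213.2 and 230.0 (-0.89, SE 0.14, adjusted p = 0.016259). The exception was the cystine transporter Slc7a11, which went from 149.8 and 130.9 to 261.0 and 267.1 (0.91, SE 0.13, adjusted p = 0.01354) in a list where its partner Slc3a2 fell.

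Few protein folding and proliferation genes passed by comparison. Of 29 chaperones 0 rose and 3 fell (7 unadjusted in either direction), namely the chaperonin subunit Cct5 (-1.51), Hspe1 (-0.71) and Hsp90aa1 (-0.60, and -1.88 in its other feature), with a median of -0.14. Of 42 DNA replication genes 1 rose, Gins1 (1.02), and 2 fell, Pcna (-1.19) and Rpa3 (-0.73), a share of 7.14% that is close to the background. However, 17 of the 42 had an unadjusted p below 0.05 in limma, against 2571 of 9269 genes. Entirely below EV lay 18 and entirely above it 11, against 27.8% and 32.4% of named genes, and the median was -0.05. Pcna, the sliding clamp of DNA polymerases, went from 302.3 and 382.4 to 176.7 and 126.5. Mitosis genes gave 2 rises, Cdc25c (0.58) and Cdc20 (0.42), and 1 fall, Bub1b (-0.52, with 0.34 in another feature that did not pass), among 26 measured.

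Energy and lipid metabolism stayed near the background too. Among 26 glycolysis and hypoxia genes Eno2 and Pfkp (0.78, with 0.02 in another feature that did not pass) rose and Pgk1 fell. The bright Pgk1 went from 3285.2 and 3387.9 to 1930.2 and 1768.5 (-0.85, SE 0.09, adjusted p = 0.005426), and its other features gave -1.83 and 0.26. Of 25 cholesterol and fatty acid genes 1 fell, the isomerase Idi1 (-1.21), and 0 rose (9 unadjusted in either direction). Pgk1 was the 1 call among 14 housekeeping genes, whose median was 0.05. Among keratins and epithelial genes Krt14 rose and the surface protein Cd24a fell (-2.35), out of 11 measured.

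**Figure D4:**
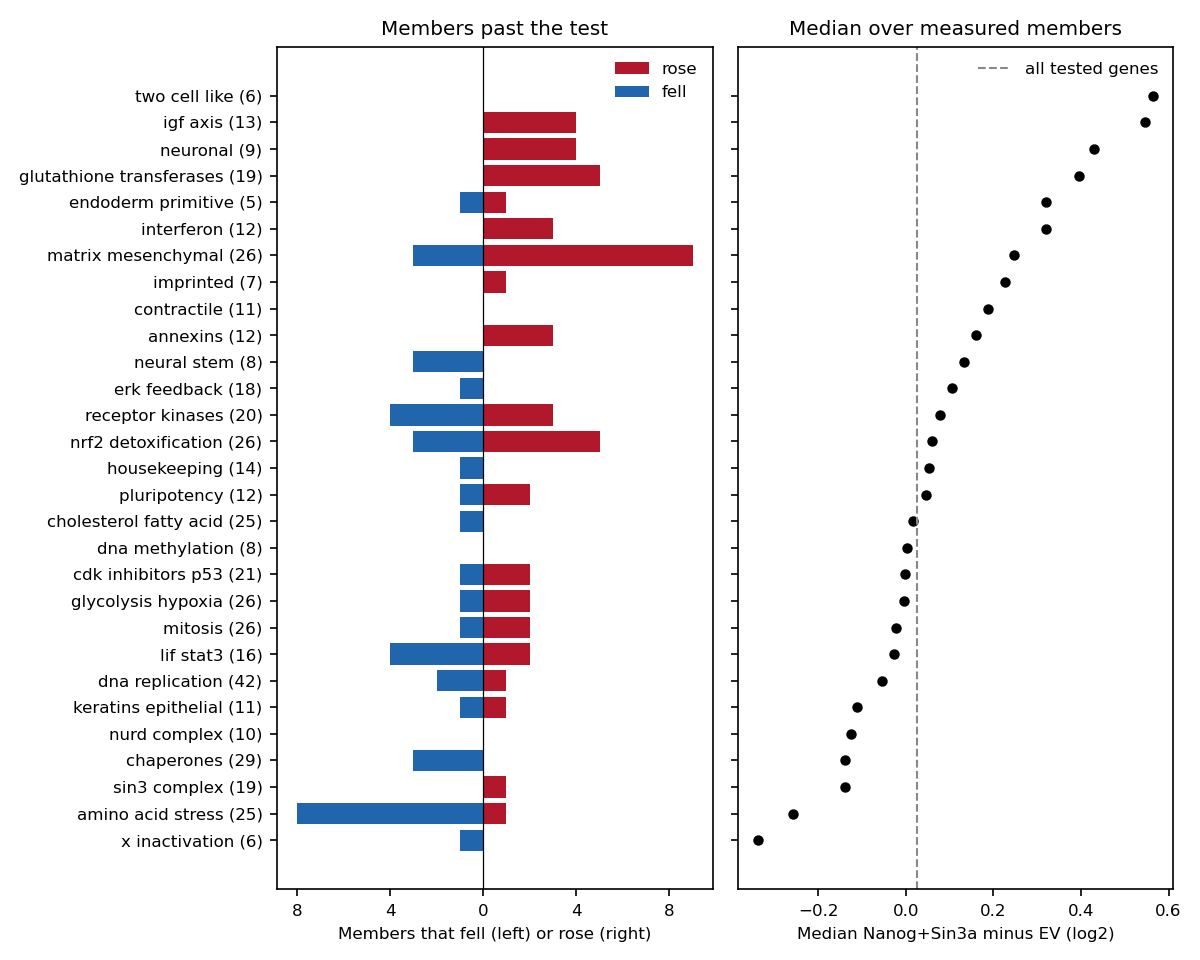
Left, the number of members of each gene list that fell (blue) or rose (red) with Nanog+Sin3a against EV; right, the median log2 difference over the measured members, with the median of all tested genes, 0.03, as a dashed line. Lists with at least 5 measured members are shown, with that number in brackets; amino acid stress has the most falls (8 of 25) and matrix mesenchymal the most rises (9 of 26).

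By chromosome, genes of chromosome 19 were set slightly but broadly below EV. The median difference of its 336 tested genes was -0.17, with 67.0% of them below 0, 11 called higher and 24 called lower. For the other chromosomes the median lay between -0.03 and 0.07. The chromosome 19 median was -0.16 and -0.15 on the Nanog+Sin3a arrays taken singly, -0.19 over its 192 genes with a mean log2 level above 7, -0.11 for Nanog alone and 0.10 on the first Sin3a array, all against the same EV arrays. Chromosome content of these stably selected populations was not measured here, so its part was not tested. Chromosome 6 had the highest share of called genes, 13.3%, with 41 higher and 19 lower of 452. On the X chromosome 9 of 286 genes rose and 12 fell, at a median of -0.01. Of 6 measured genes on the list for X inactivation 1 fell, the X-linked Utp14a (-0.82), and the median was -0.34. Whether Utp14a has a part in X inactivation was not tested. Xist, the RNA that coats the inactive X chromosome in female cells, read 139.9 and 136.2 with EV and 114.7 and 112.2 with both transgenes in its brightest feature and did not pass (-0.28, SE 0.13, adjusted p = 0.227924).

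**Figure D5:**
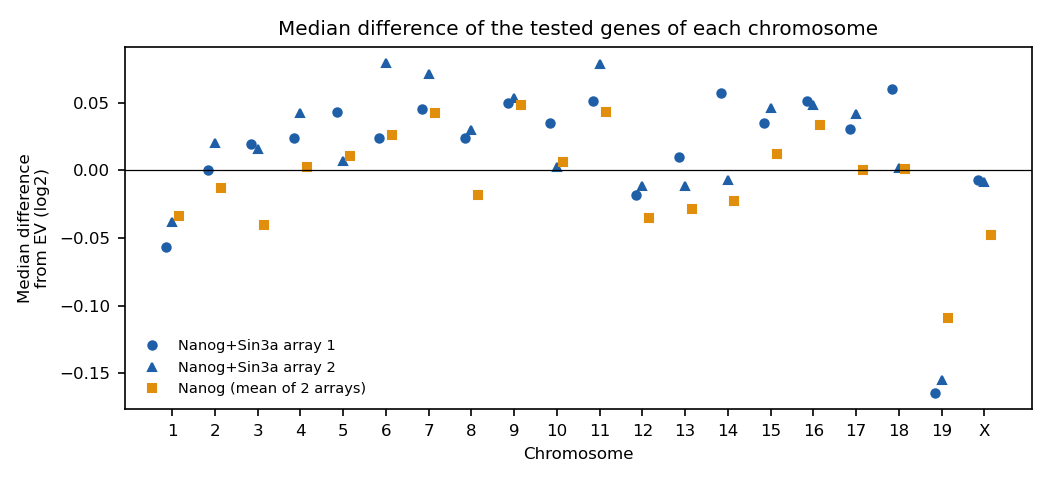
Median log2 difference from EV of the tested genes of each chromosome (horizontal axis) on the first (blue circle) and second (blue triangle) Nanog+Sin3a array and for the mean of the Nanog arrays (orange square); all share the same 2 EV arrays. Chromosome 19 lies lowest in all 3 series, at -0.16, -0.15 and -0.11.

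Features with no single gene symbol leaned the other way from named genes. Of 2484 tested, 222 passed (8.94%), of which 54 rose and 168 fell (75.7% lower), and their median difference was -0.05. Which transcripts they read is not given in the annotation used here.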

How the data were processed

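Total RNA was labelled as biotinylated cRNA and read on Illumina bead arrays, per the labels. The authors deposited 1 intensity per feature and array, made with GenomeStudio per the submitters' processing notes, which give no version or settings. Values ran from -24 to 14965 with 47.3% to 47.4% below 0 on the 4 arrays compared, so a background had been subtracted, and sorted values above 16 differed by at most 1.08% between these arrays, so they were taken as already quantile-normalised. Of each array, 16340 to 16363 features exceeded 16. The number of arrays limits the precision.

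Here intensities were raised to a floor of 16 (log2 4) and converted to log2. limma 3.58.1 in R 4.3.3 (lmFit, eBayes with an intensity trend, two-sided, Benjamini-Hochberg at 0.05) was fitted on the EV, Nanog and Nanog+Sin3a arrays (6 arrays, 3 residual degrees of freedom). The Sin3a arrays stayed out because the second was known to be far noisier. The procedure was tested on simulated data. Symbols came from the platform annotation, which gives 1 symbol for 34885 features, several for 18 and none for 10378.

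Named genes were Nanog and Sin3a, the 15 largest rises and 15 largest falls that passed with arrays that did not overlap and above the floor on all 4 arrays, the 8 brightest from and to the floor, and up to 4 called members of each list, or the 2 largest where none passed. Genes called on every feature and further list members were named beside these after their values were seen. The comparison, the 35 gene lists and these rules were chosen with earlier results of these data known. Lists are described by counts and medians, with no test of a list. Alternatives changed the arrays fitted, floor, filter, scaling, trend, features per gene and replicate block. Same-numbered arrays of different groups did not deviate together (correlations over features -0.05, -0.02 and -0.06), so the numbers were not taken as pairs. Promoters came from RefSeq (GRCm38.p6) and were aligned with Biopython 1.88.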

Additional observations from a re-analysis of the deposited data

Results flagged for a closer look

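The 2 arrays of cells with Sin3a and an empty vector enter none of the comparisons. Their Sin3a feature read 1182.1 and 1141.6, above both EV arrays, at 329.3 and 261.8, and below both Nanog+Sin3a arrays, at 1484.7 and 1483.3.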

How the results depend on the processing

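The number of features that differed from EV was 1301 as reported. It was 58 with all 8 arrays and 1307 with 7, when the second Sin3a array alone was left out. With a floor of 32 it was 542 (438 of them among the 1301) and with no filter 61 (34 among the 1301), and the cause was not tested. The count stayed within 1.5 times the reported 1301, from 998 to 1870, with the EV and Nanog+Sin3a arrays only, with 7 arrays, with log2 of intensity plus 16, with a filter at 64, with median centring, with quantile normalisation, without the trend and with 1 feature per gene. Leaving out 1 array gave 0 to 1326, at 0 without either EV or either Nanog+Sin3a array, where the lone array was assumed to vary like the other groups and the smallest adjusted p was 0.076993 to 0.145365. With the replicate number as a block (replicate block), 797 features passed against EV and 1 against Nanog. Under every setting above, the 101 named genes called kept their direction wherever they had a value, as did all called features, except that 1281 of 1301 did with a floor of 32. Changes of the arrays fitted, filter, trend, features per gene or block could not reverse a direction, so they test nothing here. Arrays of the compared groups did not overlap in any called feature, or the difference of their means stayed the same.

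Against Nanog alone, 8 features passed as reported, 0 with the Nanog and Nanog+Sin3a arrays only, 0 with all 8 arrays, 24 with a floor of 32, 19 with log2 of intensity plus 16, 13 with no filter, 57 with a filter at 64 and 4 without the trend. Leaving out any 1 array gave 0 in each case, with 1475 to 2380 features at an unadjusted p below 0.05. Features near the floor have limited signal over background, so falls to it and rises from it are bounds.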
